A study of Mus musculus with 6 samples.

Results

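Heat shock and unfolded protein response genes were followed in sorted nephron progenitors, the self-renewing kidney cells from which nephrons are built, in mouse embryos at E16.5. The 10 genes were chosen by name: Hspa1a, Hspa1b, Hspa8, Hsp90aa1, Hsph1, Dnajb1 and Hspb1 of the heat shock response, and Hspa5, Ddit3 and Atf4 of the unfolded protein response. All 10 were found among the 27179 entries of the table, and 9 of them passed the filter on low values that left 13463 entries for testing. Mutant progenitors (Six2TGC;miR-17~92fl/fl, 3 libraries) carried the miR-17~92 microRNA cluster in floxed form together with Six2TGC, a transgene that drives green fluorescent protein and Cre recombinase in Six2-expressing cells. Control progenitors (Six2TGC, 3 libraries) carried the transgene, and their labels name no floxed copies. Every library was a pool from 4 embryos, sorted on the fluorescence, so that cells expressing the transgene were measured in bulk and differences between single embryos were not seen.

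Chaperones bind unfolded or partly folded proteins and help them reach or keep their native shape. When unfolded proteins accumulate in the cytosol, the factor Hsf1 binds heat shock elements and raises the transcription of chaperone genes. In the endoplasmic reticulum the sensors Ern1 (IRE1), Eif2ak3 (PERK) and Atf6 respond to misfolded secretory proteins. Atf6 and Xbp1 raise the genes of reticulum chaperones such as Hspa5, and Eif2ak3 phosphorylates the translation factor eIF2 alpha, after which Atf4 and its target Ddit3 (CHOP) are made. Several of these genes are known to respond within a short time to heat, tissue dissociation or nutrient loss.

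Depth was between 27602025 and 30264067 reads in mutant libraries and between 28117790 and 36134381 reads in control libraries, as worked out from the table. Reads on mitochondrial ribosomal RNA took 32.23% to 38.24% of the depth in mutants and 26.96% to 30.35% in controls, and the median log2 fold change of all tested genes was -0.125. Mir17 of the targeted cluster had 2, 0 and 0 reads in mutant replicates 1, 2 and 3, against 31, 26 and 16 in control replicates 1, 2 and 3. Mir17hg, the host transcript of the cluster, was at 259, 183 and 194 RPKM in mutants and 45.4, 33.6 and 52.9 RPKM in controls. Six2 averaged 65.8 ± 10.2 RPKM in mutants and 85.7 ± 17 RPKM in controls (SD, n = 3 each), and all 10 nephron progenitor markers on the list were detected in every library. Levels are given as RPKM, reads scaled to the length of the gene and the depth of the library. Differences are log2 fold changes of RPKM + 0.5, mutant over control, and were tested with limma over all 13463 entries at a Benjamini-Hochberg adjusted p of 0.05. Values in replicate order are always for replicates 1, 2 and 3.

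None of the 9 tested genes passed the threshold between genotypes. With limma 0 of 9 were called, against 3.13% of all tested genes, and 0 were called with voom on recovered reads, against 5.13% of all. The 9 were likewise not called with a pseudocount of 0.1 (2.89% of all genes called) or 1 (3.13%), with no filter on low values (0.616%) or a mean of 1 RPKM or more (3.12%). The same held with median-of-ratios scaling (3.25%), quantile normalization (3.17%), no mean-variance trend (2.41%), the replicate block (2.92%) and depth without mitochondrial ribosomal RNA (3.07%). At an unadjusted p of 0.05, 3 of 9 (Hspa8, Dnajb1 and Ddit3) were lower in mutants, where 13.7% of all tested genes were lower by the same rule. All 9 log2 fold changes lay below 0, as did those of 68.1% of all tested genes, and 8 of 9 lay below the median of all genes, which by construction lies in the middle of them. Their median was -0.31, beside -0.125 for all tested genes. The 10 nephron progenitor markers had the same median, -0.31, with 8 of 10 below 0, 1 called lower in limma and 5 lower before adjustment at 0.05. The called marker was Meox1, a transcription factor gene, at 8.16 ± 0.937 RPKM in mutants and 16.2 ± 0.336 RPKM in controls (SD, n = 3 each). Its groups did not overlap, as held in the lower direction for 18.0% of all tested genes (log2 fold change -0.95, limma adjusted p 0.00271). Meox1 was chosen after its values were seen. The part of these markers in the median of the stress genes was not tested. In bulk samples fewer cells of a type and less RNA per cell cannot be told apart. The genotype of a pool also cannot be told apart from the strain background that came with the floxed copies, which the labels do not give.

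**Figure D1:**
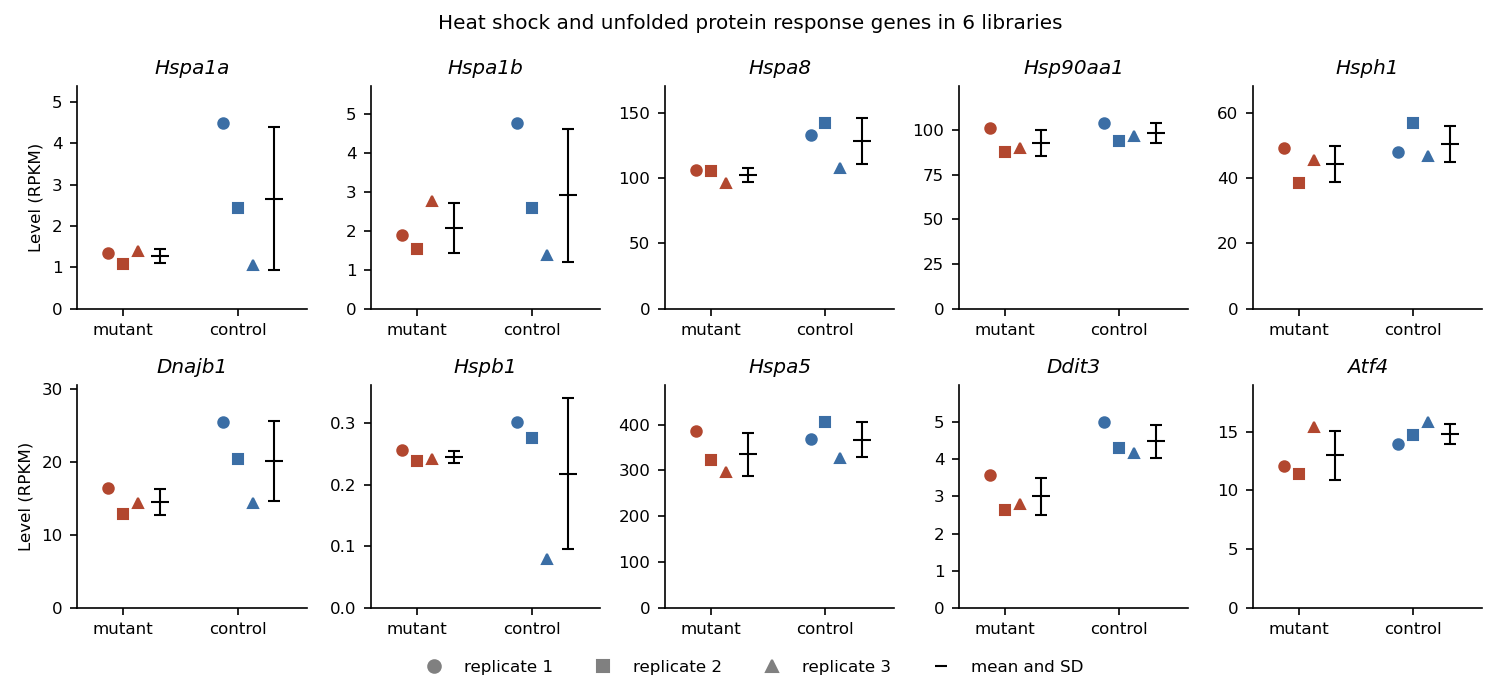
Level in RPKM (vertical axis, from 0) of each of the 10 genes in mutant and control libraries, with 1 point per library, its shape giving the replicate number, and a bar for the mean and SD of 3 libraries. Hspa8 and Ddit3 show no overlap between groups, as held in the lower direction for 18.0% of all tested genes. The control points of Hspa1a, Hspa1b and Dnajb1 are spread more widely than the mutant points.

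Heat shock factors were considered first. Hsf1, the factor that activates heat shock genes, was at 13.1, 12.8 and 15.2 RPKM in mutants and 14.5, 13.4 and 17.1 RPKM in controls, with groups that overlapped (log2 fold change -0.13, limma adjusted p 0.621). Hsf2, a related factor, was at 16.1, 13.6 and 13.8 RPKM in mutants, against 17.6, 16.2 and 18.4 RPKM in controls (log2 fold change -0.26, limma adjusted p 0.293). Its groups did not overlap, which also held in the lower direction for 18.0% of all tested genes. Hsbp1, which binds the trimer of Hsf1, differed by -0.18 (limma adjusted p 0.452), and Hsf4 lay under the filter. Of this list 0 of 3 tested genes passed in limma, 0 before adjustment at 0.05 and 0 with voom.

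Hspa1a (Entrez Gene 193740, chr17:34969359-34972156) and Hspa1b (Entrez Gene 15511, chr17:34956429-34959238) encode the heat-inducible Hsp70 proteins. They are neighbouring copies, and 63.8% of the 31-base words of Hspa1a transcripts occur in Hspa1b, and 67.6% of those of Hspa1b in Hspa1a. Reads from one may have been counted to the other, so the 2 entries are given separately and as a sum. The promoter windows of both genes are shown because each holds a heat shock element. The copies followed the same order of control libraries, and the part of shared reads in this was not tested. Each window runs from 250 bases before to 50 bases after the annotated start (RefSeq, GRCm38.p6, minus strand). Capitals mark the 2-unit heat shock element GAANNTTC or TTCNNGAA.
Hspa1a, chr17:34972107-34972406: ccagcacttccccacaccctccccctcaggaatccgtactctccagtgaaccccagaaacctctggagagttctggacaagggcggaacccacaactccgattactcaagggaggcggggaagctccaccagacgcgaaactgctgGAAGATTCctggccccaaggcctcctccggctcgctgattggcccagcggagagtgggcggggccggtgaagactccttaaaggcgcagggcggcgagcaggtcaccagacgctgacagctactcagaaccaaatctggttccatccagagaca
Hspa1b, chr17:34959189-34959488: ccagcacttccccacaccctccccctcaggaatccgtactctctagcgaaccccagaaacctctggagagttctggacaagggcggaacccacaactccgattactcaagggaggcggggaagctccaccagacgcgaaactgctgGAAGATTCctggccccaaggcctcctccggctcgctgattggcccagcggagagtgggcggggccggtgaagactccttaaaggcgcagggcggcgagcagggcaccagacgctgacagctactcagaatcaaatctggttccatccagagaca

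The windows were identical at 296 of 300 bases. From Hspa1a to Hspa1b the differences were C44T, T47C, T249G and C276T, with positions counted from 1 at the first base printed. Both held the element once, starting 104 bases before the annotated start. It occurred on either strand in 15.1% of all 32851 promoter windows of this length and in 11.7% of those of tested genes. Among the other members with a window, Hspb1 held 2 such matches, and each of the 2 overlapping windows of Hsph1 held 3. Neither window of Dnajb1 held a match, nor did those of Hspa5, Ddit3 and Atf4. The Hsph1 windows also held 1 match to the 3-unit element, in which units of GAA and TTC alternate with 2 bases between them and which occurred in 0.603% of all windows. A match is a run of letters and was not tested as a binding site.

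Hspa1a was at 1.35, 1.07 and 1.39 RPKM in mutants, against 4.49, 2.44 and 1.05 RPKM in controls, and rested on 304 reads over the mutant libraries and 700 reads over the control libraries. Control replicate 1 was highest, and control replicate 3 lay below all mutants. The log2 fold change was -0.69 (95% interval -1.41 to 0.04, limma adjusted p 0.277). Hspa1b was at 1.89, 1.54 and 2.77 RPKM in mutants and 4.77, 2.59 and 1.37 RPKM in controls. It overlapped in the same way, with control replicate 1 highest and control replicate 3 lowest of all libraries (log2 fold change -0.31, 95% interval -1.01 to 0.39, limma adjusted p 0.592).

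The sum of both copies was 3.24, 2.6 and 4.16 RPKM in mutants and 9.25, 5.03 and 2.42 RPKM in controls. If each shared read was counted to 1 copy, the sum does not depend on which copy. Whether such reads were instead dropped or counted to both is not known. Controls differed among themselves 3.82-fold and mutants 1.6-fold, and the mutant values lay inside the range of the controls. Means were 3.33 ± 0.781 RPKM in mutants and 5.57 ± 3.45 RPKM in controls (SD, n = 3 each). The difference of -0.51 on the log2 scale did not pass an exact two-sided permutation test (p = 0.5, where the 20 arrangements of 6 libraries allow no p under 0.1). As 1 entry of the limma fit, the sum had a 95% interval of -1.26 to 0.23. Without control replicate 1 the difference was -0.09, and without control replicate 3 it was -0.96. Hspa1a contributed 41.6%, 41.0% and 33.3% of the summed RPKM in mutants and 48.5%, 48.5% and 43.6% in controls.

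Hspa8 (Entrez Gene 15481, chr9:40801276-40805202) encodes Hsc70, the constitutive Hsp70 of the cytosol. It was at 106, 105 and 96.3 RPKM in mutants and 133, 142 and 108 RPKM in controls. Every mutant library lay below every control library, as held for 18.0% of all tested genes, though mutant replicate 1 and control replicate 3 differed by little. The log2 fold change was -0.31 (95% interval -0.61 to -0.01, limma p 0.0449 and adjusted p 0.246). With median-of-ratios scaling it was -0.19 (limma adjusted p 0.526) and with quantile normalization -0.12 (limma adjusted p 0.539). By the shared-word measure 44.8% of Hspa8 words occur in other genes, mostly in a pseudogene, Gm15459. Summed over both copies, Hspa1a and Hspa1b reached 2.6 to 4.16 RPKM in mutants and 2.42 to 9.25 RPKM in controls, far below Hspa8 in every library, and RPKM corrects for gene length.

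Hsp90aa1 (Entrez Gene 15519, chr12:110691036-110696395) encodes the inducible cytosolic Hsp90, a chaperone of kinases and steroid receptors. Its levels were 101, 87.7 and 90.0 RPKM in mutants and 104, 94.1 and 96.9 RPKM in controls. These groups overlapped, and no member varied less among its controls. Its log2 fold change of -0.08 (95% interval -0.36 to 0.19, limma adjusted p 0.717) turned positive, 0.04, with median-of-ratios scaling or with depth taken without mitochondrial ribosomal RNA, and 0.10 with quantile normalization. Of its words 51.5% occur in other genes, so reads of pseudogenes may be included. Hsp90ab1, the constitutive paralog and chosen after its values were seen, was at 688, 630.0 and 728 RPKM in mutants, against 854, 1031 and 743 RPKM in controls, with no overlap (log2 fold change -0.35, limma adjusted p 0.284). Of all tested genes 18.0% were lower without overlap.

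Hsph1 (Entrez Gene 15505, chr5:149616843-149636498) encodes Hsp110, which exchanges the nucleotide on Hsp70. It was at 49.2, 38.5 and 45.6 RPKM in mutants and 47.9, 56.9 and 46.7 RPKM in controls. Groups overlapped because mutant replicate 1 lay above control replicates 1 and 3 (log2 fold change -0.19, 95% interval -0.49 to 0.12, limma adjusted p 0.464). Dnajb1 (Entrez Gene 81489, chr8:83608175-83612653) encodes Hsp40, the co-chaperone that delivers clients to Hsp70. It was at 16.4, 12.9 and 14.3 RPKM in mutants, against 25.4, 20.4 and 14.4 RPKM in controls. Control replicates 1 and 2 stood above all mutants, while control replicate 3 lay between mutant replicates 1 and 3. The log2 fold change of Dnajb1 was -0.42 (95% interval -0.84 to -0.01, limma p 0.0457 and adjusted p 0.247).

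Hspb1 (Entrez Gene 15507, chr5:135887919-135889563) encodes the small heat shock protein Hsp25, which holds unfolded proteins without using ATP. It was the member under the filter, at 0.256, 0.239 and 0.241 RPKM in mutants and 0.301, 0.276 and 0.0788 RPKM in controls. These values rested on 7, 6 and 6 reads in mutants and 8, 9 and 2 reads in controls. The ratio of read rates, mutant over control, was 1.09, with an exact 95% counting interval of 0.548 to 2.18, and a difference inside that interval was not detectable at this depth. An exact two-sided permutation test of the 6 libraries gave p = 1. Of Hspb1 words 55.4% occur in other genes, mostly in the pseudogene Hsp25-ps1.

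**Figure D2:**
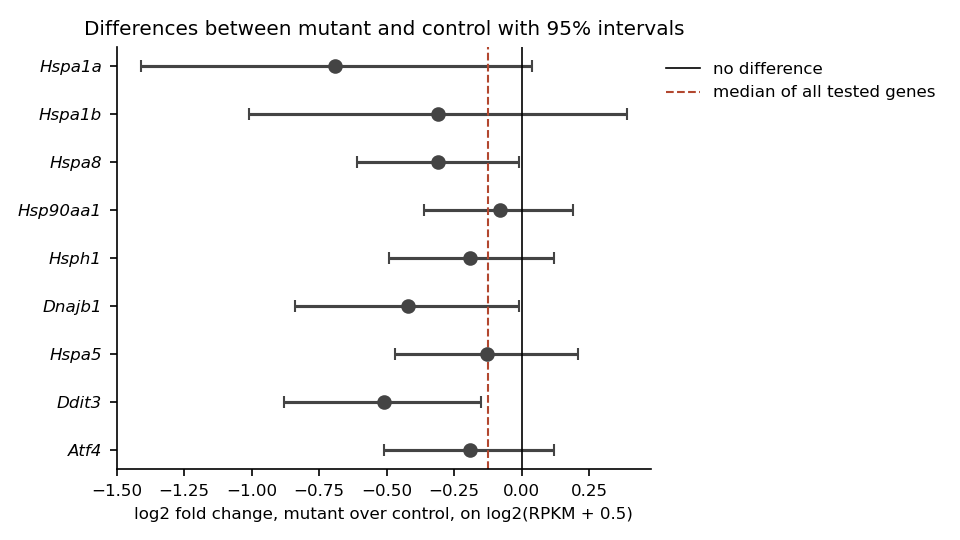
log2 fold change, mutant over control, on log2(RPKM + 0.5) (horizontal axis) for the 9 tested genes, with points for the estimate and bars for the 95% interval of limma. All points lie below 0, and the median of all tested genes (-0.125, dashed) lies inside every interval other than that of Ddit3.

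The unfolded protein response members were led in level by Hspa5 (Entrez Gene 14828, chr2:34772090-34776529), which encodes BiP, the Hsp70 of the endoplasmic reticulum and the repressor of its stress sensors. Its promoter window is shown because it holds the ER stress element, CCAAT and CCACG with 9 bases between them, to which Atf6 binds with the factor NF-Y (capitals; RefSeq, GRCm38.p6, plus strand).
Hspa5, chr2:34771840-34772139: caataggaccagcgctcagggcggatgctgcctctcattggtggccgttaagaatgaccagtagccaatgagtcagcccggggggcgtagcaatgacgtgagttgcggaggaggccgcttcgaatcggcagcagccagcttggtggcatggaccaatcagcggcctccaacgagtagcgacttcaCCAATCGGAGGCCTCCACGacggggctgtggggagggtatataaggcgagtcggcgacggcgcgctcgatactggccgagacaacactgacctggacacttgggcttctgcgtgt

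The element began 65 bases before the annotated start, and on either strand it occurred in 39 of 32851 windows (0.119%). Hspa5 was at 386, 322 and 296 RPKM in mutants and 368, 405 and 327 RPKM in controls, on 75432 and 90681 reads. Groups overlapped, with mutant replicate 1 above control replicates 1 and 3. The log2 fold change was -0.13 (95% interval -0.47 to 0.21, limma adjusted p 0.64), which on the linear scale leaves ratios from 0.721 to 1.15. With quantile normalization the log2 fold change was 0.12.

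Ddit3 (Entrez Gene 13198, chr10:127290793-127296291) encodes CHOP, the transcription factor of prolonged stress that favours apoptosis. It was at 3.57, 2.64 and 2.79 RPKM in mutants, against 4.99, 4.29 and 4.16 RPKM in controls, on 225 and 365 reads. The groups did not overlap, as held in the lower direction for 18.0% of all tested genes, and Ddit3 had the lowest p of the members. Its log2 fold change was -0.51 (95% interval -0.88 to -0.15, limma p 0.00934), and the adjusted p of 0.128 did not pass. It ranged from 0.0813 to 0.392 over the alternatives run, none of which called it. Atf4 (Entrez Gene 11911, chr15:80255184-80257545), the factor made when eIF2 alpha is phosphorylated, was at 12.1, 11.4 and 15.4 RPKM in mutants and 14, 14.7 and 15.8 RPKM in controls. Its groups overlapped through mutant replicate 3 (log2 fold change -0.19, 95% interval -0.51 to 0.12, limma adjusted p 0.461). Atf4 is known to be controlled mainly through translation of its mRNA, which these libraries did not measure.

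Libraries differed in which stood highest. Control replicate 1 was highest for 5 of the 9 tested genes (Hspa1a, Hspa1b, Hsp90aa1, Dnajb1 and Ddit3), control replicate 2 for 3 (Hspa8, Hsph1 and Hspa5) and control replicate 3 for Atf4. Mutant replicate 2 was lowest for 5 of 9, mutant replicate 3 for 2, and control replicate 3 for both Hspa1 copies. The median deviation of the 9 genes from their mean over the 6 libraries was -0.03, -0.29 and -0.22 on the log2 scale in mutants and 0.22, 0.21 and -0.07 in controls. Both were read from RPKM without further scaling. Over all tested genes the median-of-ratios size factors were 0.9779, 0.8844 and 1.029 in mutants and 1.056, 1.087 and 1.008 in controls. Mutant replicate 2 was thus also lowest table-wide, and control replicates 1 and 2 highest. The part of this scaling in the order was not tested. Control replicate 3 lay below every mutant library for Hspa1a and Hspa1b. It lay inside the mutant range for Hsp90aa1, Hsph1, Dnajb1 and Hspa5, and above it for Hspa8, Ddit3 and Atf4.

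**Figure D3:**
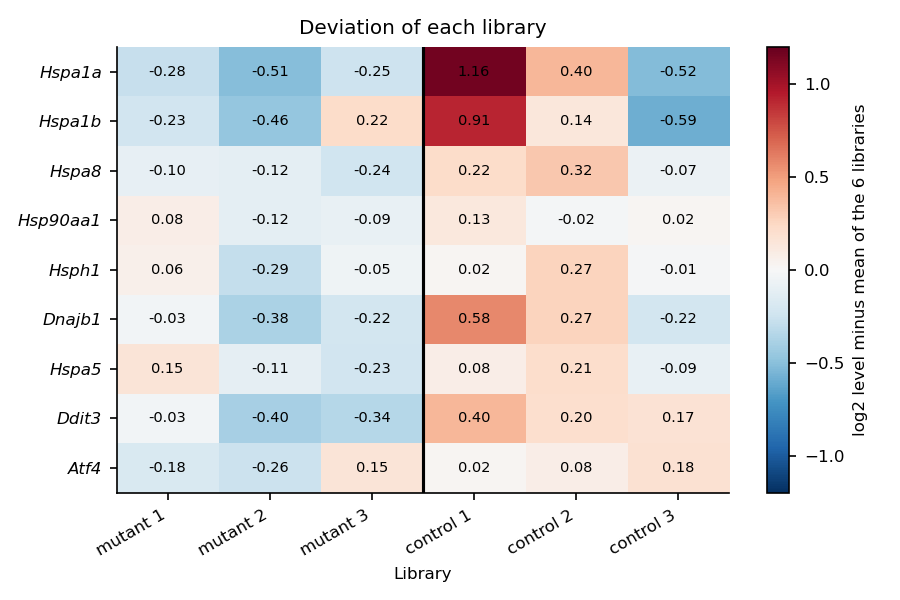
Each cell gives the log2(RPKM + 0.5) of a gene in a library minus its mean over the 6 libraries (colour scale in log2 units), for the 9 tested genes, with mutant libraries left of the line. Hspa1a ran from -0.52 in control replicate 3 to 1.16 in control replicate 1, while Hsp90aa1 stayed between -0.12 and 0.13.

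Counts of called members turned on that library. Without control replicate 3, Hspa1a (log2 fold change -1.12, limma adjusted p 0.0112) and Dnajb1 (-0.64, adjusted p 0.0209) were called lower in mutants, where 6.2% of all tested genes were called lower and 8.18% in either direction. Leaving out any other library called 0 of 9. All genes were then called at 1.5%, 1.12% and 1.86% without mutant replicates 1, 2 and 3, and at 1.57% and 3.7% without control replicates 1 and 2. Control replicate 3 also had the lowest summed level of the 7 interstitium markers, 59.1 RPKM, against 104 and 152 RPKM in control replicates 1 and 2, while mutants had 115, 193 and 168 RPKM. Of the 7 markers 6 were lowest in that library, among them the collagen gene Col3a1 at 14.4 RPKM, and none was at 0. The exception was Foxd1, a transcription factor gene of interstitial progenitors, at 12.4 RPKM in control replicate 3 and 8.84 and 9.42 RPKM in control replicates 1 and 2. Xist, like Col3a1 and Foxd1, was chosen after its values were seen. It was at 60.1, 180.0 and 122 RPKM in mutants and 154, 0.034 and 0.0278 RPKM in controls. Every mutant pool and control replicate 1 thus held female cells, while control replicates 2 and 3 held next to none. The sexes pooled differed between controls and also between genotypes, so sex cannot be fully told apart from genotype. The part of interstitial cells or of sex in the spread of the heat shock genes, or in their differences between genotypes, was not tested.

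The genes most like the summed Hspa1 pair in pattern, by Pearson's r of log2 levels over the 6 libraries, were Spg7 (0.987), Thumpd3 (0.973), Mcfd2 (0.968), Gucd1 (0.967) and Pcmt1 (0.961), among 7044 named genes that averaged 5 RPKM or more. Dnajb1 ranked 37 (r = 0.914), ahead of Hspa8 (0.663), Hsp90aa1 (0.526) and Hsph1 (0.428). Spg7 itself ranged narrowly, between 6.5 and 8.16 RPKM. Most like Hspa5 were Adk (0.993), Nudcd1 (0.993), Fzd7 (0.992), Ptma (0.989) and Zfp60 (0.989), while Hspa8, the next member in that order, ranked 982. With 6 libraries and 7044 genes such values describe order only, and all levels share the depth of their library.

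A wider set of 107 chaperone and stress genes in 9 lists was read from the same fit. Of the 98 tested, 2 rose and 1 fell, where 1.32% of all tested genes rose and 1.81% fell. Over all tested genes this balance turned with scaling: with median-of-ratios scaling 282 rose and 156 fell. The 3 calls make 3.06% beside 3.13% of all tested genes, and 15 (15.3%) had an unadjusted p under 0.05, beside 19.6%. Their median log2 fold change was -0.19. All 3 calls lay in the Atf4 and Chop program, and Atf3, of the 2 that rose, passed the filter only through its mutant values. With a mean of 1 RPKM or more as the filter, 1 rose and 1 fell of 96 tested.

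Cytosolic heat shock chaperones had a median of -0.27 over 16 tested genes of 18, with 0 called in limma, 6 before adjustment at 0.05 and 1 with voom. Of the 6, 5 were lower in mutants. Over all tested genes 19.6% had an unadjusted p under 0.05 in limma and 5.13% were called with voom. Cryab, the small heat shock protein alpha B crystallin, was at 1.67, 2.19 and 2.6 RPKM in mutants and 1.37, 1.17 and 0.9 RPKM in controls. Every mutant library was above every control, in the direction opposite to most of the list (7.06% of all tested genes were higher without overlap; log2 fold change 0.68, limma adjusted p 0.103). Dnaja1, an Hsp40 co-chaperone, was at 38.8, 30.2 and 27.0 RPKM in mutants and 49.7, 53.5 and 38.1 RPKM in controls. Its log2 fold change was -0.55 (limma adjusted p 0.112; 0.0369 in voom and 0.0127 without control replicate 3). Hspa2, an Hsp70 best known from the testis, differed by -0.66 (limma adjusted p 0.13) and Hspa4l, an Hsp110 relative, by -0.36 (0.205).

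Co-chaperones of Hsp90 and Hsp70 had a median of -0.26, with all 12 below 0, 0 called in limma, 1 before adjustment at 0.05 and 0 with voom. Cdc37, which loads kinases onto Hsp90, had the lowest p (log2 fold change -0.43, limma adjusted p 0.235), followed by Chordc1 (-0.28, 0.258), Fkbp5 (-0.38, 0.284) and St13 (-0.26, 0.364). The 8 subunits of the TRiC chaperonin, which folds actin and tubulin, lay close together, between -0.34 and -0.24. None was called in limma or with voom, and Cct2 had an unadjusted p under 0.05 (log2 fold change -0.32, adjusted p 0.198). Cct8 (-0.34, 0.315), Tcp1 (-0.29, 0.331) and Cct4 (-0.33, 0.352) followed. Summed TRiC levels were 732, 625 and 655 RPKM in mutants and 889.9, 1009.9 and 628 RPKM in controls. All 8 were highest in control replicate 2, and control replicate 3 lay inside the mutant range of the sum.

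Mitochondrial chaperones and proteases had a median of -0.17 over 9 genes, with 0 called in limma, 0 before adjustment at 0.05 and 0 with voom. Lonp1, a matrix protease, differed by -0.38 (limma adjusted p 0.296) and Hspa9, the mitochondrial Hsp70, by -0.33 (0.31), and Clpx (-0.25, 0.348) and Trap1 (-0.23, 0.428) came next. Sensors of the unfolded protein response had a median of -0.14 over 7 genes, near that of all genes, with 0 called in limma, 0 before adjustment at 0.05 and 0 with voom. Eif2ak3 was at 3.46, 2.55 and 3.02 RPKM in mutants and 2.38, 2.28 and 2.9 RPKM in controls (log2 fold change 0.21, limma adjusted p 0.497). Mbtps2, the protease that releases Atf6, had -0.28 (0.293), Xbp1 -0.14 (0.527) and Ern1 -0.21 (0.542). Splicing of Xbp1, through which Ern1 acts, was not measured by these gene levels.

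Endoplasmic reticulum chaperones and degradation genes had a median of -0.15 over 21 tested genes of 22, with 0 called in limma, 1 before adjustment at 0.05 and 0 with voom. Hsp90b1, the Hsp90 of the reticulum and chosen after its values were seen, was at 584, 478 and 478 RPKM in mutants and 448, 474 and 450.0 RPKM in controls, without overlap (log2 fold change 0.16, limma adjusted p 0.551). Of all tested genes 7.06% were higher without overlap. Syvn1, the ubiquitin ligase of reticulum-associated degradation, had the lowest p (log2 fold change -0.38, limma adjusted p 0.229), ahead of Edem1 (-0.27, 0.347), P4hb (-0.21, 0.414) and Dnajc3 (-0.21, 0.421). Kinases and phosphatase subunits that act on eIF2 alpha had a median of -0.13 over 6 genes, with 0 called in limma, 0 before adjustment at 0.05 and 0 with voom. Eif2ak2 (PKR) differed by 0.23 (limma adjusted p 0.371), Ppp1r15b -0.26 (0.382), Eif2ak4 (GCN2) -0.2 (0.443) and Eif2ak1 -0.11 (0.655).

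**Figure D4:**
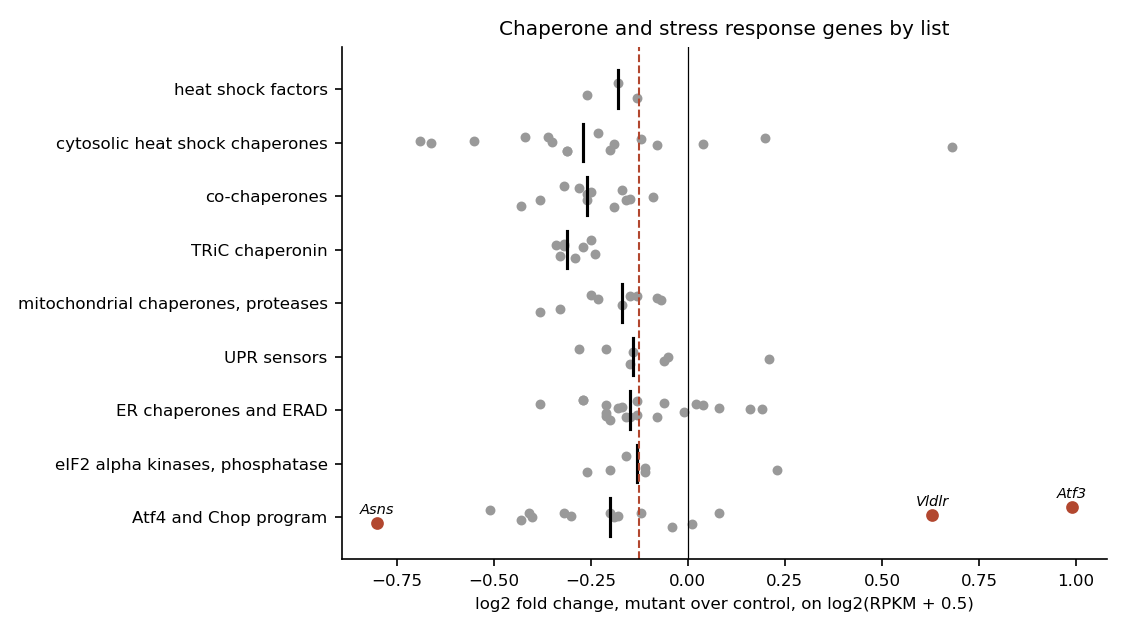
log2 fold change, mutant over control, on log2(RPKM + 0.5) (horizontal axis) for each tested gene of 9 lists, with black bars for list medians, a dashed line for the median of all tested genes (-0.125) and red points for genes past an adjusted p of 0.05 in limma. Asns (-0.8), Vldlr (0.63) and Atf3 (0.99) are the called genes, all in the Atf4 and Chop list, and list medians run from -0.31 to -0.13. Atf3 passed the filter only through its mutant values.

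In the Atf4 and Chop program 2 of 16 tested genes rose, 1 fell and 13 did not pass, with a median of -0.2, and 6 had an unadjusted p under 0.05. Over all tested genes 3.13% were called and 19.6% had an unadjusted p under 0.05. Of the 2 that rose, Atf3 passed the filter only through its mutant values. The list holds 21 genes, of which 5 lay under the filter. Asns, the asparagine synthetase gene that Atf4 activates when amino acids are short, was at 9.24, 7.86 and 10.7 RPKM in mutants, against 16.2, 17.8 and 15.3 RPKM in controls. All mutants lay below all controls, as held for 18.0% of all tested genes. Means were 9.27 ± 1.43 RPKM in mutants and 16.4 ± 1.28 RPKM in controls (SD, n = 3 each). Asns had a log2 fold change of -0.8 (95% interval -1.12 to -0.48, limma adjusted p 0.0123). Its limma adjusted p no longer passed when mutant replicate 1 (0.0589) or 2 (0.0803) was left out, or with no filter on low values (0.0556). The promoter window of Asns is shown because it holds a C/EBP-ATF element, TGATGNAA, of the kind that Atf4 binds (capitals; RefSeq, GRCm38.p6, minus strand).
Asns, chr6:7693160-7693459: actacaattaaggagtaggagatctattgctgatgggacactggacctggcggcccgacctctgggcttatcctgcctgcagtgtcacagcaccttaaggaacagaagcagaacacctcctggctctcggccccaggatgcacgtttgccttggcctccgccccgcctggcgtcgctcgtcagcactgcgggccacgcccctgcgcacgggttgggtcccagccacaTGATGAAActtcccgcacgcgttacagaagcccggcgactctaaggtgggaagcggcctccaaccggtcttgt

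The element began 23 bases before the annotated start, and on either strand it occurred in 3.97% of all windows and 2.2% of those of tested genes. The windows of the 2 genes of the list that rose were searched as well: the Atf3 window held the element once, as did 1 of the 2 windows of Vldlr. Atf3, a stress factor that Atf4 activates, was at 1.54, 0.928 and 1.58 RPKM in mutants and 0.48, 0.336 and 0.45 RPKM in controls, means of 1.35 ± 0.363 RPKM in mutants and 0.422 ± 0.0761 RPKM in controls (SD, n = 3 each). It thus rose with no overlap, as held in the higher direction for 7.06% of all tested genes (log2 fold change 0.99, 95% interval 0.51 to 1.46, limma adjusted p 0.0342). Atf3 passed the filter only through its mutant values. Vldlr, a lipoprotein receptor gene that the reticulum stress response also raises, was at 6.84, 6.42 and 6.62 RPKM in mutants and 4.13, 4.29 and 3.93 RPKM in controls, and rose as well (log2 fold change 0.63, 95% interval 0.32 to 0.93, limma adjusted p 0.0345). For Atf3 the limma adjusted p no longer passed when mutant replicate 1 (0.139) or 3 (0.104) or control replicate 1 (0.0817) or 2 (0.0525) was left out, or with no filter (0.107). For Vldlr it no longer passed when mutant replicate 1 (0.139), 2 (0.113) or 3 (0.0751) or control replicate 1 (0.142) was left out, with no filter (0.0759) or with the replicate block (0.0589).

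Within the list Asns was lower and Vldlr higher in mutants, while Atf4 and Ddit3 did not pass. Atf3 was not set beside them, since it passed the filter only through its mutant values. Markers of other cell types were also higher in mutants. The 8 macrophage genes summed to 7.65, 6.95 and 9.14 RPKM in mutants and 2.6, 2.85 and 1.31 RPKM in controls. Of these, 4 lay under the filter, and Tyrobp, Ctss and C1qc passed it only through their mutant values, so that no count of calls is given for the list. The 5 nephron tubule markers summed to 7.34, 5.67 and 18 RPKM in mutants and 3.16, 4.07 and 3.34 RPKM in controls, also without overlap. Within these sums Slc12a1 was at 3.19, 1.96 and 8.28 RPKM in mutants and 0.114, 0.233 and 0.63 RPKM in controls. Without Slc12a1, the sums of the other tubule markers overlapped between groups. Lrp2, like Slc12a1, was higher without overlap, as held for 7.06% of all tested genes, while Hnf4a, Fxyd2 and Slc34a1 overlapped between groups. Slc12a1 and Hnf4a passed the filter only through their mutant values. The 7 interstitium markers had a median log2 fold change of 0.69, with all 7 above 0, 0 called in limma, 4 before adjustment at 0.05 and 0 with voom. Over all tested genes 19.6% had an unadjusted p under 0.05 in limma. Sums of the 7 interstitium markers overlapped between groups. Sums of endothelial, ureteric bud and erythroid markers overlapped too. The part of RNA from other cell types in the Atf3 and Vldlr results was not tested.

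**Figure D5:**
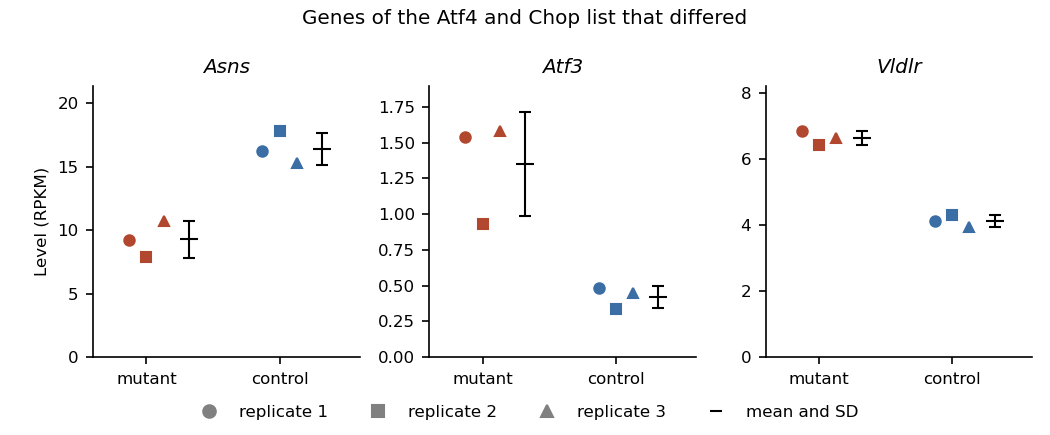
Level in RPKM (vertical axis, from 0) of Asns, Atf3 and Vldlr in mutant and control libraries, with 1 point per library and a bar for the mean and SD of 3 libraries. Mutant points of Asns all lie below the control points, and those of Atf3 and Vldlr all lie above them. Without overlap, 18.0% of all tested genes were lower and 7.06% higher in mutants.

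Matches to the seeds of the floxed microRNAs were looked up in 1 3' UTR a member, the longest in the annotation (GENCODE M21, mm10). The mature sequences (RefSeq, GRCm38.p6, chromosome 14, plus strand) are shown because they fix the letters searched, with the seed, bases 2 to 8, in capitals. They fall into 4 seed groups, since miR-17 and miR-20a share a seed, as do miR-19a and miR-19b.
mmu-miR-17-5p: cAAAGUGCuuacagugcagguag
mmu-miR-20a-5p: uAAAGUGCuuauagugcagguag
mmu-miR-18a-5p: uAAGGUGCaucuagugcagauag
mmu-miR-19a-3p: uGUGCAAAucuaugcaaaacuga
mmu-miR-19b-3p: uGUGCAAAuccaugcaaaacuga
mmu-miR-92a-3p: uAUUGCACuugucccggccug

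Of the 10 members 2 held a match, Hspa1b and Dnajb1, both to the miR-19 seed (TTTGCAC), and 36.3% of 11576 tested genes with a 3' UTR held a match to any of the 4. In both the match lies in capitals among its neighbours.
Hspa1b: aaacagactcTTTGCACttgat
Dnajb1: ccttttggatTTTGCACagtcc

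Neither gene was higher in mutants, with log2 fold changes of -0.31 and -0.42. The member UTRs ran from 81 bases in Atf4 to 1834 bases in Dnajb1, against a median of 1411 bases over all tested genes. The called genes of the Atf4 list were looked up after their values were seen. Asns, with a UTR of 146 bases, held none. Atf3 held 1 match to the miR-17 and miR-20a seed (GCACTTT) in 1186 bases, and Vldlr held 2 in 5091 bases, where 15.5% of tested genes held that match.
Atf3: gatgttaatgGCACTTTtgtct
Vldlr, first: ggccaaatatGCACTTTcccta
Vldlr, second: ctattcttaaGCACTTTgaaga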

How the data were processed

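Total RNA of sorted progenitors was amplified (Ovation RNA-Seq System V2) and sequenced in paired reads on 2 lanes, per the labels' protocols. The values are RPKM as the authors deposited them, in 1 table of 27179 entries with Entrez Gene numbers and 6 libraries. Per the submitters' processing notes the build was mm10 and the tools included FastQC and limma, and column names carry the word subread, per the file headers. Not given in the sources used here are the counting tool, annotation, strand setting and treatment of reads with several positions. Symbols were matched for 25275 entries through RefSeq (GRCm38.p6).

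The depth of each library and its whole reads were derived from the RPKM of short RNAs of known length, where the smallest values stand for 1 read. Reads came out whole, within 0.002 of a read plus rounding, for 13463 of 13463 tested entries, and summed to 99.44% to 99.52% of the depth. Whether a read is a single read or a pair is not known. Exact 95% binomial intervals cover counting error only.

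limma 3.58.1 in R 4.3.3 was fitted to log2(RPKM + 0.5) of entries with a mean of at least 0.5 RPKM, with a mean-variance trend, 1 term for genotype and Benjamini-Hochberg adjustment over all entries, two-sided. Pools are the replicates, and p-values measure the spread between pools of 4 embryos. The fit and the recovery of reads were tested on simulated data. Sequences were read with Python 3.11.15. The members, lists and tests were chosen with earlier results of these data known. Named genes were the members, the targeted locus, Six2, the 4 genes with the smallest p of each of 9 lists (3 where 3 were tested), and the 5 genes most like the summed Hspa1 pair and Hspa5. Further genes named, such as paralogs and cell type markers, were chosen after their values were seen. Alternatives were the pseudocount, filter, scaling, variance model, replicate block and left-out libraries. Voom on recovered reads and depth without mitochondrial ribosomal RNA were added after the data were seen.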

Additional observations from a re-analysis of the deposited data

How the results depend on the processing

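The count of all genes called, 422, was 143 with no filter, 690 with voom on recovered reads and between 151 and 1101 without 1 library. It was 202, 151 and 250 without mutant replicates 1, 2 and 3, and 211, 498 and 1101 without control replicates 1, 2 and 3. Of the 422, 178 were higher and 244 lower in mutants, and this balance turned with scaling. With median-of-ratios scaling 282 were higher and 156 lower, and with quantile normalization 264 and 163. With depth without mitochondrial ribosomal RNA they were 262 and 151. The count of members called was 0 under every alternative run other than without control replicate 3, where it was 2 (range 0 to 2 without 1 library). The count over the 9 stress lists, 3, was 0 with no filter and 0 to 16 without 1 library, the highest again without control replicate 3, where 6 of the 16 were TRiC subunits. There 98 listed genes were tested, and 8.18% of all tested genes were called. With no filter 0.616% of all genes were called. The summed Hspa1 difference ranged from -0.96 to -0.09 without 1 library. Signs turned for Hsp90aa1 (0.04 with median-of-ratios scaling, 0.1 with quantile normalization, 0.04 with depth without mitochondrial ribosomal RNA), Hspa5 (0.12 with quantile normalization) and Hspa1b (0.07 without control replicate 1, in a range of -0.68 to 0.07 without 1 library), none of them called, and the cause was not tested. These scalings moved the median of all genes to -0.012, -0.02 and -0.017.

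Replicate numbers are shared by the labels of both genotypes. Deviations from group means correlated at 0.0526, 0.157 and 0.153 for pools 1, 2 and 3, so the numbers were not taken to pair the pools, though each mutant pool correlated best with its own number. With the replicate block 393 genes, 0 members and 2 listed stress genes were called, and Vldlr had a limma adjusted p of 0.0589. Depth limited Hspb1, at 2 to 9 reads a library, most.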

Other observations

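Immediate early genes, which are known to be induced within minutes of dissociation, were set beside the heat shock genes. Of 14 tested genes 1 fell (Junb, chosen after its values were seen), 13 did not pass in limma, 6 had an unadjusted p under 0.05 and 2 were called with voom. Over all tested genes 3.13% were called in limma, 19.6% had an unadjusted p under 0.05 and 5.13% were called with voom. Of the 6, 5 were lower in mutants and 1, Jun, was higher without overlap, as held for 7.06% of all tested genes. Jun, also chosen after its values were seen, was at 21.1, 17.5 and 22.5 RPKM in mutants and 16.9, 16.1 and 13 RPKM in controls (log2 fold change 0.4, limma adjusted p 0.181). Junb was at 0.593, 0.411 and 0.788 RPKM in mutants and 2.4, 2.11 and 1.41 RPKM in controls (log2 fold change -1.16, limma adjusted p 0.016). The call was lost without mutant replicate 1 (0.0692), mutant replicate 2 (0.113) or control replicate 1 (0.0795) and with no filter (0.0964). Summed levels of the list were 484, 424 and 578 RPKM in mutants, against 679.9, 601 and 589 RPKM in controls. Control replicate 1 was highest for 6 of the 14, and control replicate 3 was highest for 3. The share of all tested genes highest in each library was not counted. Size factors were also highest in control replicates 1 and 2 (1.056 and 1.087), and the part of this scaling was not tested.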
